A study of Mus musculus with 48 samples.

Results

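The homeodomain genes of the 4 Hox clusters were read together with their Meis and Pbx partner genes in RNA-sequencing libraries of early mouse B-lineage cells. Members were taken by name alone: every gene model called Hoxa, Hoxb, Hoxc or Hoxd with a number, and Meis or Pbx with a number from 1 to 4. This gave 46 of the 21025 gene models, made up of 11 Hoxa, 10 Hoxb, 9 Hoxc, 9 Hoxd, 3 Meis and 4 Pbx genes. The naming rule itself uses no measured value. Levels are in RPKM, which scales reads to gene length and to the mapped reads of the library, so they can be set side by side between genes.

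Hox proteins are transcription factors whose genes lie side by side in clusters, and in blood formation the Hoxa and Hoxb genes are best known from stem and progenitor cells, where they fall as cells mature. Meis and Pbx proteins belong to the TALE class of homeodomain factors: they bind DNA together with Hox proteins and with each other. Hoxa9 with Meis1 is the pair best known for driving leukaemia when it stays switched on. Polycomb complexes keep silent Hox genes repressed, and MLL (the methyltransferase encoded by the gene labelled Mll1 here) keeps active ones transcribed.

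The study asked how Ikaros, the zinc finger protein encoded by Ikzf1, acts at successive stages of early B-cell development. Of its 48 samples, 30 were RNA-sequencing libraries in 11 groups, all from C57BL/6 mice, and the 18 chromatin samples were not analysed here. Control pro-B cells were Ikzf1(fl/+) Cd79a(Cre/+), and deleted pro-B cells were Ikzf1(fl/-) Cd79a(Cre/+). Both therefore carry a floxed allele and a Cre expressed from the B-lineage gene Cd79a. The same control and deleted genotypes were sequenced as c-Kit-high pro-B cells and, with Rag2(-/-) added in both arms, as pro-B cells unable to rearrange antigen receptor genes. Each of these 6 groups has 2 libraries, and so has a group of wild-type pre-B cells. The pre-pro-B cells were cultured cells from Ebf1(-/-) mice, and thus lack a factor needed to become pro-B cells. They carried an empty vector, the control hairpin Ren713, or a hairpin against Ikzf1 (Ik4056 in 1 group, Ik2709 in another), and each of these 4 groups has 4 libraries. The labels give no age, and do not say whether replicates came from separate animals or cultures. P-values therefore measure the spread between these libraries, which may be technical.

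Library depth, implied by the RPKM value of a single read, ran from 2.32 M reads in a c-Kit-high control to 36.2 M. In 4 libraries (a c-Kit-high control, a c-Kit-high deleted library and both pre-B libraries) it could not be resolved. Ikzf1 transcript was lower in the deleted than in the control arms of the c-Kit-high and the Rag2(-/-) cells, and its fall in pro-B cells did not pass the test (log2 -0.29 ± 0.14 SE, adjusted p = 0.178). The sources used here do not say which exons the deletion removes. With both hairpins pooled it was lower than in the controls (-1.57 ± 0.17, adjusted p = 6.54e-06), at 23.7 to 53.2 RPKM with Ik4056 and 30.8 to 60.6 RPKM with Ik2709 against 106 to 145 RPKM. B-progenitor markers summed to between 2910 and 6417 RPKM in the pro-B and pre-B libraries and to between 62.7 and 137 RPKM in the pre-pro-B libraries. In the pre-B libraries all 12 myeloid markers were detected, at 6409 and 6625 RPKM in sum, against 10.7 to 603 RPKM in the pro-B libraries. T-cell markers summed to 17.8 to 65.8 RPKM in the pro-B and pre-B libraries and to 50.3 to 179 RPKM in the pre-pro-B libraries, and the markers of natural killer and dendritic cells to 1.16 to 25.4 RPKM and 43.3 to 115 RPKM.

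The promoters of the members that carry the results are shown first, as the 250 bases before the annotated start, 5′ to 3′ on the gene's strand. They come from RefSeq with the GRCm38.p6 build, while the deposited values rest on mm9. Capitals mark TGGGAA on either strand, the core of the sequence that Ikaros binds. Hoxb8 (chr11:96281655-96281904, + strand) is the member of the rising Hoxb block with a window, and Hoxb4 (chr11:96318017-96318266, + strand) is its near neighbour whose level moved little. Hoxa6 (chr6:52208673-52208922, - strand), Hoxa7 (chr6:52218574-52218823, - strand) and Hoxa9 (chr6:52227371-52227620, - strand) are from the cluster whose sum was higher in the pre-pro-B libraries than in all others. Meis1 (chr11:19018970-19019219, - strand) was lower in the hairpin libraries, and Meis3 (chr7:16175145-16175394, + strand) rose in deleted pro-B cells.
Hoxb8: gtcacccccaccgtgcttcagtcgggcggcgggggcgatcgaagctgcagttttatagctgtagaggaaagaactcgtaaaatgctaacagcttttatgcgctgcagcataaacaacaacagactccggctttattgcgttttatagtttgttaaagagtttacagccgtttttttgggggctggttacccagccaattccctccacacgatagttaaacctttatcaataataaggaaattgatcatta
Hoxb4: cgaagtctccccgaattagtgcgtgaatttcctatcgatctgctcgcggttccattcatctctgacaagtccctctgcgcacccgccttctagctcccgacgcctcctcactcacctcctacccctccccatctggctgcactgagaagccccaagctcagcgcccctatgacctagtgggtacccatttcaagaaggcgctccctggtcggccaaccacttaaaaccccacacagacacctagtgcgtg
Hoxa6: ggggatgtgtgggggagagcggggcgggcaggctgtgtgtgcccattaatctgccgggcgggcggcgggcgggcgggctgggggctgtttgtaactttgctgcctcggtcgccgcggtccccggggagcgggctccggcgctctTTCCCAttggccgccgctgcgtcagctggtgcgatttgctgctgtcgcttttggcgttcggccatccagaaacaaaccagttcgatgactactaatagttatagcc
Hoxa7: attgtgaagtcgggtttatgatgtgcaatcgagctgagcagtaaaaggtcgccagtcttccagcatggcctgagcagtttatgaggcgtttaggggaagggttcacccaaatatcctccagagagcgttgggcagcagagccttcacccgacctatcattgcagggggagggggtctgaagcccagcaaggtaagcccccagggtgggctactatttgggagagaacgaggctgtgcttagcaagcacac
Hoxa9: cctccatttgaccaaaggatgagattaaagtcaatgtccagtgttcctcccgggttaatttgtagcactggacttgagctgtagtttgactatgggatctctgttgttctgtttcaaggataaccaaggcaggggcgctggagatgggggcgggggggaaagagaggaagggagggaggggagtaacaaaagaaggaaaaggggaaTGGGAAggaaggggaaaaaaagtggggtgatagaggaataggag
Meis1: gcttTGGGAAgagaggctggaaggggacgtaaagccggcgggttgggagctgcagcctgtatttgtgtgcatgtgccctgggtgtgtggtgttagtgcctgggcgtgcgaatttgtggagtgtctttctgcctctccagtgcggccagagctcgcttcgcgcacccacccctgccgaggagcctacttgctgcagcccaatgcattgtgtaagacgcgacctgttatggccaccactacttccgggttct
Meis3: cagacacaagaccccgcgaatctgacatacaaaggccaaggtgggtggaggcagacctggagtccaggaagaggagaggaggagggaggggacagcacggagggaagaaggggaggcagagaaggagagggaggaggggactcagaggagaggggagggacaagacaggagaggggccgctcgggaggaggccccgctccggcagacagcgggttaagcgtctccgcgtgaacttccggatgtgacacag
The Ikaros core lies once each in the windows of Hoxa6, Hoxa9 and Meis1, at positions -106, -44 and -246 counted from the gene start, and in none of the other 4. Over all members RefSeq gave 29 windows for 27 genes. Of these, 5 hold TGGGAA on either strand, against 21.6% of 32851 promoter windows of the same length. A Meis core, TGACAG, was in 2 of the 29 windows and in 15.9% of all. The joint Pbx and Hox site TGATTNAT was in 2 of the 29 and in 2.83% of all. The windows of the members had a median GC content of 59.2% against 52.4% over all promoters, and a median of 12 CpG pairs against 6. A match in these windows is a description of the letters and says nothing about binding.

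A member was counted as detected in a group where its libraries averaged at least 1 RPKM. By that measure 19 of the 46 members were detected in at least 1 group and 27 in none, and 11 of those 27 were at 0 in every library. No Hoxc or Hoxd gene was detected anywhere, and their highest value in any library was 0.303 RPKM, for Hoxd8. Among the undetected Hoxa and Hoxb genes, Hoxa13, Hoxb1 and Hoxb13 were at 0 throughout. Hoxa11, Hoxb2 and Hoxb9 never passed 0.120 RPKM. Hoxa2 reached 1.32 to 1.61 RPKM in replicate 4 of each pre-pro-B group, and Meis2 reached 1.26 RPKM in 1 control pro-B library.

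Pre-pro-B cells expressed the Hoxa cluster. With the empty vector 11 members were detected: Hoxa3, Hoxa5, Hoxa6, Hoxa7, Hoxa9, Hoxa10, Hoxb4, Meis1, Meis3, Pbx2 and Pbx4. With Ren713, Ik4056 and Ik2709 the same list without Meis3 was detected, 10 members each. In c-Kit-high control pro-B cells 11 members were detected, among them Hoxa4, Hoxa5, Hoxa6, Hoxa7 and Hoxa9 of the Hoxa cluster, Hoxb4 alone of the Hoxb cluster, Meis1, Pbx2, Pbx3 and Pbx4. Control pro-B cells had 7 (Hoxb4, Hoxb7, Meis1, Pbx2, Pbx3 and Pbx4 among them), Rag2(-/-) control pro-B cells 3 (Hoxb4, Pbx2 and Pbx4), and pre-B cells 6 (among them Hoxb4, Meis1, Pbx2, Pbx3 and Pbx4). The deleted groups differed from their controls in which Hox genes were on this list. Deleted pro-B cells had 10, with Hoxb3 to Hoxb8, Meis3, Pbx2, Pbx3 and Pbx4. Deleted c-Kit-high cells had 13, among them Hoxa7, Hoxa9, Hoxb3 to Hoxb8, Meis1, Pbx2, Pbx3 and Pbx4. Deleted Rag2(-/-) cells had 8, among them Hoxb4, Hoxb6, Hoxb7, Hoxb8, Pbx2, Pbx3 and Pbx4. Hoxb4, Pbx2 and Pbx4 were the only members detected in all 11 groups.

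**Figure D1:**
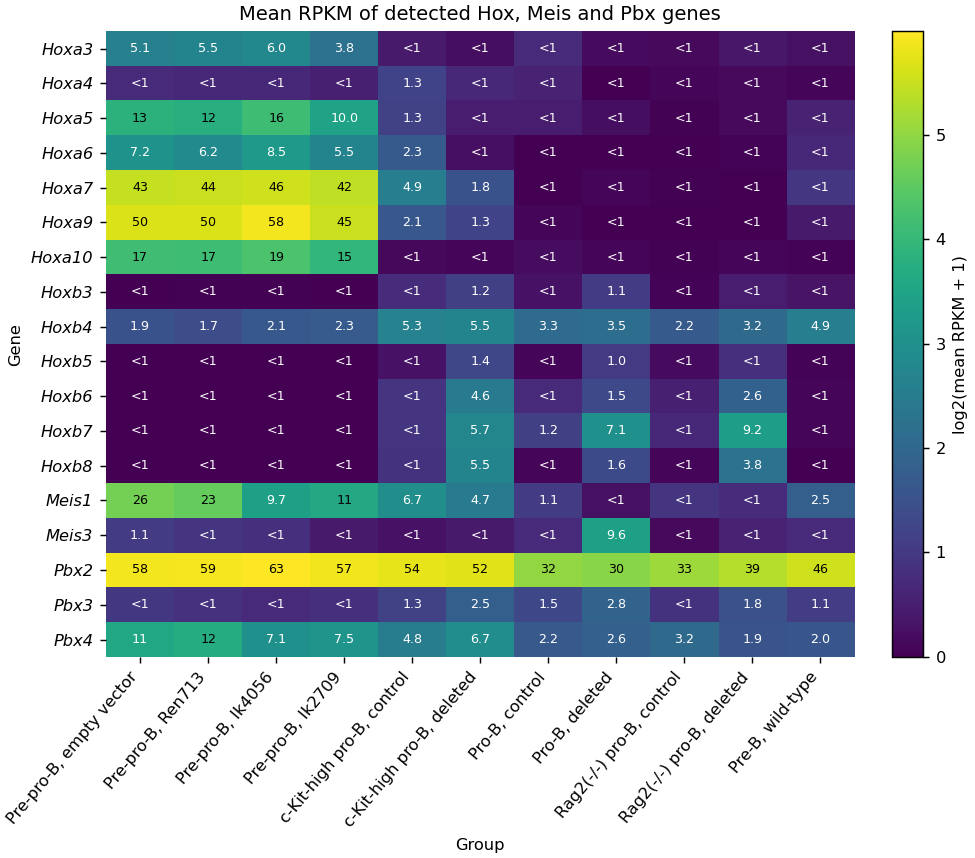
Mean RPKM of 18 detected members (rows) in the 11 groups (columns), with colour on a log2(mean RPKM + 1) scale and the mean printed in each cell (<1 where under 1 RPKM). Hoxa7 and Hoxa9 are brightest in the 4 pre-pro-B groups, and Hoxb6, Hoxb7 and Hoxb8 stand out in the 3 deleted pro-B groups.

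The 11 Hoxa genes summed to between 105 and 204 RPKM in the 16 pre-pro-B libraries and to between 0.161 and 13.3 RPKM in the 14 others. The Hoxb sum lay the other way: 1.46 to 2.67 RPKM in pre-pro-B libraries, nearly all of it Hoxb4, and 2.82 to 25.5 RPKM in the others. The highest Hoxb sums were in the deleted groups, at 22.2 and 25.5 RPKM in c-Kit-high cells, 19.3 and 20.6 RPKM in Rag2(-/-) cells and 14.9 and 16.5 RPKM in pro-B cells. The controls of these 3 settings lay between 2.82 and 10.4 RPKM. In bulk samples such as these, fewer cells of a type and less RNA per cell cannot be told apart.

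Hoxb3, Hoxb5, Hoxb7 and Hoxb8 were called higher in pro-B cells after deletion of Ikzf1. Differences were tested with limma on log2(RPKM + 1) in a fit of the 14 pro-B and pre-B libraries, which 16 of the 46 members could enter by reaching 1 RPKM in 2 libraries. In pro-B cells 6 of the 16 were called higher after deletion (Hoxb3, Hoxb5, Hoxb7, Hoxb8, Meis3 and Pbx3), where 13.5% of all 11937 genes tested were called higher. Hoxb3 and Hoxb5 reached 1 RPKM in deleted libraries alone, and Hoxb8 and Meis3 would not have entered the fit without deleted libraries. The filter therefore favoured higher calls of these genes, and the count is not support by itself. Hoxa4 was called lower (1 of 16), against 9.89% of all genes. The median log2 difference was 0.10 over the tested members and 0.03 over all genes.

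Hoxb7 encodes an antennapedia-class factor from the middle of the cluster. It stood at 1.09 and 1.31 RPKM in the control pro-B libraries and at 7.63 and 6.56 RPKM in the deleted ones. Both deleted libraries lay far above both controls, 5.92 times as high on average (log2 difference 1.88 ± 0.19 SE, adjusted p = 1.66e-05). Hoxb8, its neighbour, which is known for blocking differentiation of myeloid progenitors when kept active, was at 0 and 0.148 RPKM in controls and at 1.83 and 1.27 RPKM after deletion. The groups did not overlap (1.24 ± 0.27, adjusted p = 0.00454), though the control values stood for only 0 and 4 implied reads. Hoxb5 went from 0 and 0.154 RPKM to 0.511 and 1.54 RPKM (0.87 ± 0.22, adjusted p = 0.0138). Hoxb3 went from 0.0464 and 0.394 RPKM to 1.56 and 0.619 RPKM (0.75 ± 0.22, adjusted p = 0.0236). Hoxb5 and Hoxb3 each lost the call when 1 of certain libraries was left out, with adjusted p up to 0.141 and 0.22. Hoxb6 was at 0.196 and 1.11 RPKM in controls and at 1.404 and 1.61 RPKM after deletion, without passing the test (0.66 ± 0.27, adjusted p = 0.108). Without control replicate 2, Hoxb6 was called higher (1.07, adjusted p = 0.0257). Hoxb4, long used to expand blood stem cells, was at 3.30 and 3.24 RPKM against 3.59 and 3.32 RPKM (0.06 ± 0.28, adjusted p = 0.922).

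In c-Kit-high pro-B cells Hoxb5, Hoxb6, Hoxb7 and Hoxb8 were called higher after deletion, 4 of the 16 tested members, where 11.6% of all genes were. Hoxb5 entered the fit only through the deleted libraries, where it was high, and Hoxb8 would not have entered it without deleted libraries. The place of both in this count was thus favoured by the filter. Hoxb8 rose from 0.345 and 1.31 RPKM to 6.29 and 4.75 RPKM, 6.68 times as high on average (1.88 ± 0.27, adjusted p = 0.000329). Hoxb7 rose from 1.05 and 0.68 RPKM to 4.79 and 6.56 RPKM (1.84 ± 0.19, adjusted p = 2.65e-05). Hoxb6 rose from 0.46 and 1.31 RPKM to 4.19 and 4.91 RPKM (1.59 ± 0.27, adjusted p = 0.00137). For these 3 genes both deleted libraries lay above both controls, and the calls held under each of the 9 alternatives tried. In control replicate 2 the values of Hoxb8, Hoxb6 and Hoxb5 stood for only 8, 4 and 1 implied reads. The reads of control replicate 1 could not be resolved. Hoxb5 rose from 0.226 and 0.228 RPKM to 1.12 and 1.73 RPKM (0.97 ± 0.22, adjusted p = 0.00904). That call was lost under 3 of 9 alternatives: quantile normalization, the compared libraries alone, and without deleted replicate 2 (adjusted p up to 0.0864). Hoxb4 was at 7.49 and 3.20 RPKM in controls and 4.57 and 6.34 RPKM after deletion, so the groups overlapped (0.10 ± 0.28, adjusted p = 0.856). Hoxb3 was at 0.795 and 0.58 RPKM against 1.20 and 1.20 RPKM (0.39 ± 0.22, adjusted p = 0.26). Control replicate 1 and deleted replicate 2 carry consecutive library numbers. Within that pair Hoxb8 differed by 2.09 and in the remaining pair by 1.66 on the log2 scale, and Hoxb7 by 1.89 and 1.78.

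In Rag2(-/-) pro-B cells 3 of the 16 tested members were called higher (Hoxb6, Hoxb7 and Hoxb8), where 15.5% of all genes were, and 0 were called lower by limma, where 6.84% of all genes were. Hoxb8 would not have entered the fit without deleted libraries, which favoured its place in this count. No member had an unadjusted p under 0.05 in the lower direction (0 of 16), while Pbx4 was called lower after quantile normalization (adjusted p = 0.0239). Hoxb7 rose from 0.712 and 0.527 RPKM to 9.11 and 9.30 RPKM, 14.9 times as high on average (2.66 ± 0.19, adjusted p = 1.16e-06). Hoxb8 rose from 0.0507 and 0.0703 RPKM, which stand for 4 and 5 implied reads, to 4.76 and 2.76 RPKM, or 426 and 247 reads (2.13 ± 0.27, adjusted p = 0.000107). Hoxb6 rose from 0.633 and 0.253 RPKM to 2.50 and 2.72 RPKM (1.34 ± 0.27, adjusted p = 0.00393). Hoxb5 stood at 0.141 and 0.118 RPKM against 0.624 and 0.872 RPKM, with no overlap but without a call (0.63 ± 0.22, adjusted p = 0.0641). Hoxb4 was at 2.65 and 1.84 RPKM against 3.23 and 3.13 RPKM (0.38 ± 0.28, adjusted p = 0.39). The median difference of all genes was 0.06 here and moved to -0.07 under quantile normalization and -0.04 under median-ratio scaling, a shift of up to -0.12. The 3 Hoxb calls held under both.

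Along the chromosome Hoxb8, Hoxb7, Hoxb6 and Hoxb5 are neighbours, followed by Hoxb4 and Hoxb3. Together Hoxb5 to Hoxb8 summed to 1.28 and 2.72 RPKM in control pro-B cells and to 10.99 and 11.4 RPKM after deletion. In c-Kit-high cells the sums were 2.08 and 3.52 RPKM against 16.4 and 18.0 RPKM, and in Rag2(-/-) cells 0.968 and 1.54 RPKM against 15.6 and 17.0 RPKM. Hoxb9 and Hoxb13 on one side of this stretch and Hoxb2 and Hoxb1 on the other were not detected in any of these groups. In the RefSeq annotation the span of Hoxb3 contains Hoxb4, and an antisense transcript overlaps Hoxb5 and Hoxb6. The libraries are strand-specific by their labels, but no source used here says whether counting used the strand, so these partners cannot be told apart. The pro-B and the Rag2(-/-) settings differ from each other in their stromal markers (9 genes, of which Dcn and Lum were at 0 in all pro-B libraries). These summed to 86.6 and 134 RPKM in pro-B controls and 34.7 and 32.8 RPKM after deletion, to 9.49 and 18.8 RPKM and then 89.3 and 61.9 RPKM in Rag2(-/-) cells, and to 1.34 and 12.02 RPKM and then 6.89 and 3.97 RPKM in c-Kit-high cells. The sum of the 7 endothelial markers was higher after deletion in all 3 settings, from 14.9 to 17.1 RPKM in control pro-B cells to 33.2 to 37.8 RPKM, from 46.9 to 54.9 RPKM to 117 to 156 RPKM in c-Kit-high cells and from 12.6 to 17.6 RPKM to 86.1 to 122 RPKM in Rag2(-/-) cells. Of the 4 endothelial markers tested, 2, 1 and 2 were called higher (Cdh5 each time), and in c-Kit-high cells their median log2 difference was -0.25. Cdh5 and Pecam1 made up most of these sums, while Tek and Cldn5 did not pass 0.53 RPKM in any of these libraries. Erythroid and megakaryocyte markers went from 2.78 to 3.45 RPKM in control pro-B cells to 9.16 to 13.04 RPKM after deletion and from 3.08 to 5.86 RPKM to 10.07 to 19.3 RPKM in Rag2(-/-) cells, and overlapped in c-Kit-high cells. The markers of natural killer and dendritic cells went from 2.04 to 2.49 RPKM to 18.8 to 20.2 RPKM in pro-B cells, where Nkg7 was called higher (2.68 ± 0.43). In Rag2(-/-) cells the myeloid sum went from 10.7 to 30.1 RPKM to 49.5 to 53.8 RPKM. Of the 12 B-progenitor markers, 6 were called lower and 2 higher in pro-B cells, with Rag1 at -3.61 ± 0.51. The part of these markers in the result was not tested.

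**Figure D2:**
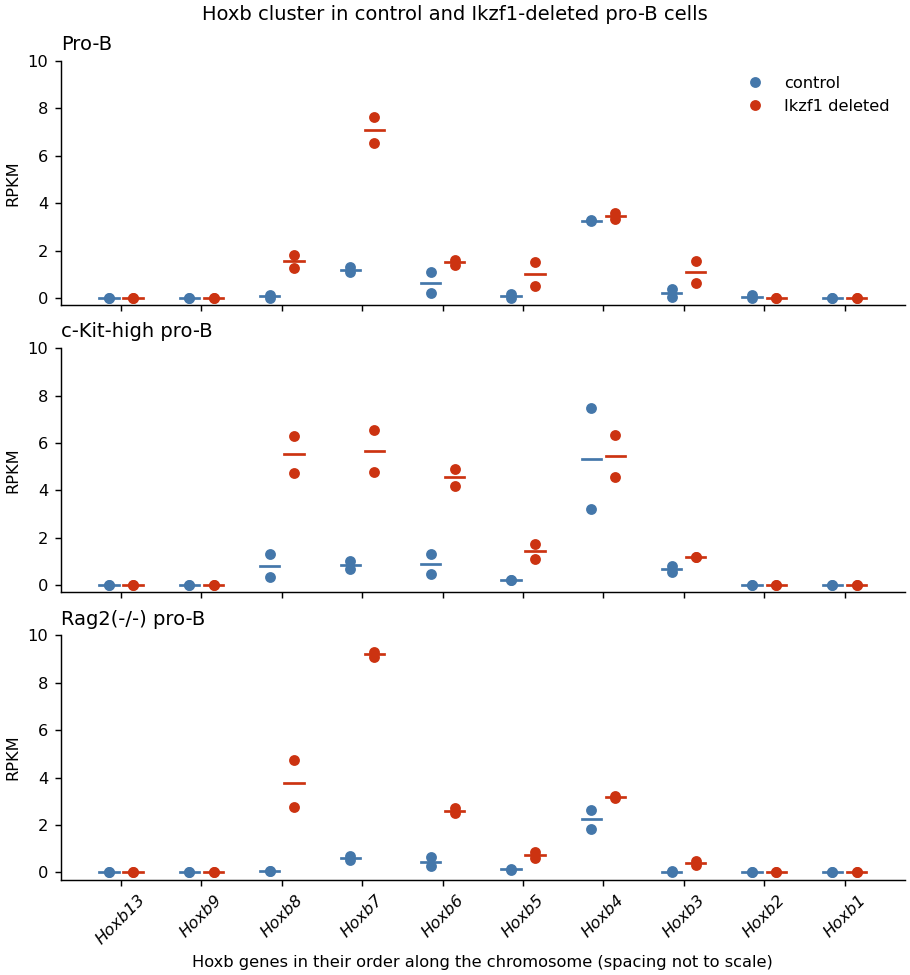
RPKM of the 10 Hoxb genes, in chromosomal order along the x axis, in control (blue) and Ikzf1-deleted (red) libraries of 3 settings; points are single libraries (2 a group) and bars their means. Hoxb5 to Hoxb8 are higher in the deleted libraries of each setting, with Hoxb7 at 9.11 and 9.30 RPKM in Rag2(-/-) cells, while Hoxb4 stays near its control.

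Hoxa genes were lower after deletion in c-Kit-high cells, the pro-B setting in which they were detected. Of the 16 tested members 3 were called lower (Hoxa4, Hoxa6 and Hoxa7), against 5.6% of all genes. Hoxa4 and Hoxa6 entered the fit only through the control libraries, where they were high, so the filter favoured a lower call and the count is not support by itself. Hoxa7, a member of the middle of the Hoxa cluster known from progenitors and MLL-rearranged leukaemia, was at 4.00 and 5.76 RPKM in controls and at 2.02 and 1.66 RPKM after deletion. Both deleted libraries were below both controls (-1.03 ± 0.17, adjusted p = 0.00108), and the call was lost with a pseudocount of 0.1 (adjusted p = 0.0818). Hoxa6 was at 1.44 and 3.08 RPKM in controls and at 0.152 and 0.206 RPKM after deletion, 12.6 times lower on average (-1.42 ± 0.21, adjusted p = 0.000399). Hoxa4 was at 1.48 and 1.13 RPKM against 0.488 and 0.742 RPKM (-0.51 ± 0.16, adjusted p = 0.0493), a call lost under 4 of 7 alternatives. Hoxa9 was at 2.64 and 1.52 RPKM against 1.13 and 1.505 RPKM, with no call (-0.39 ± 0.18, adjusted p = 0.166). It was called lower after quantile normalization (-0.60, adjusted p = 0.0241) and without control replicate 2 (-0.66, adjusted p = 0.0288). Hoxa5 was at 0.958 and 1.61 RPKM against 0.454 and 0.278 RPKM, and did not enter the fit. In control replicate 2 the values of Hoxa4 and Hoxa5 stood for only 4 and 7 implied reads. Without the filter, Hoxa5 was called lower (-0.73, adjusted p = 0.0191). Control replicate 2 is the shallowest of the 26 libraries whose depth was resolved, at 2.32 M reads, and without it Hoxa7 was still called lower (adjusted p = 0.00969), while Hoxa6 did not enter the fit without either control library. Myeloid markers summed to 142 to 603 RPKM in the controls and 185 to 305 RPKM in the deleted libraries, which overlap.

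In pro-B cells Hoxa4 was the single member called lower, from 0.452 and 0.575 RPKM to 0 in both deleted libraries. These values stand for 8 and 9 implied reads against 0 (-0.60 ± 0.16, adjusted p = 0.0194), under 1 RPKM in both groups, and the call was lost when any 1 of the 4 libraries was left out. Other members at low level in control pro-B cells were Meis2, at 0.459 and 1.26 RPKM, and Hoxa2, at 0.308 and 0.987 RPKM. Both were higher in replicate 2, where the stromal marker sum was 134 RPKM, than in replicate 1, where it was 86.6 RPKM. In the deleted Rag2(-/-) libraries, with sums of 89.3 and 61.9 RPKM, Meis2 was at 0.437 and 0.425 RPKM, and in the 6 c-Kit-high and pre-B libraries, with sums up to 21.4 RPKM, it did not pass 0.0202 RPKM. Neither gene entered the fit, and the part of the stromal signal in these values was not tested.

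**Figure D3:**
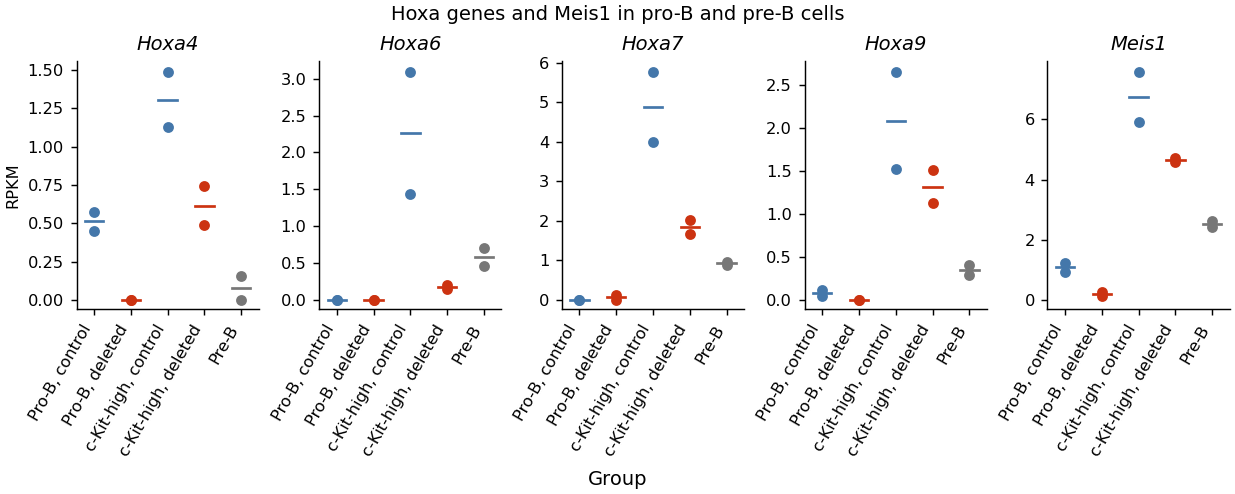
RPKM of Hoxa4, Hoxa6, Hoxa7, Hoxa9 and Meis1 in control (blue) and Ikzf1-deleted (red) pro-B and c-Kit-high pro-B cells and in pre-B cells (grey); points are single libraries (2 a group), bars are means and each panel has its own y axis from 0. All 5 genes are highest in the c-Kit-high controls, with Hoxa7 at 4.00 and 5.76 RPKM.

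Of the Meis genes, Meis3 changed most in the pro-B deletion. It was at 0.241 and 1.04 RPKM in control pro-B cells and at 10.4 and 8.81 RPKM after deletion, 15.1 times as high on average (2.73 ± 0.21, adjusted p = 2.74e-06). In no other group did a library exceed 1.53 RPKM, and the gene entered the fit only through these deleted libraries. Its c-Kit-high values were 0.209 and 0.241 RPKM against 0.238 and 0.471 RPKM, and in Rag2(-/-) cells at 0.112 and 0.125 RPKM against 0.495 and 0.511 RPKM, neither called (adjusted p = 0.718 and 0.188). Meis1, the Hoxa9 cofactor, was at 0.93 and 1.24 RPKM in control and 0.132 and 0.26 RPKM in deleted pro-B cells, 5.54 times lower on average but not past the threshold (-0.80 ± 0.31, adjusted p = 0.0816). In c-Kit-high cells Meis1 was at 7.57 and 5.92 RPKM against 4.73 and 4.58 RPKM (-0.45 ± 0.31, adjusted p = 0.369). In Rag2(-/-) controls the replicates differed widely, 1.62 and 0.146 RPKM, around the deleted values of 0.945 and 0.433 RPKM.

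Pbx2, Pbx3 and Pbx4 moved less. Pbx3 was at 1.33 and 1.59 RPKM in control and 2.79 and 2.73 RPKM in deleted pro-B cells (0.62 ± 0.20, adjusted p = 0.0441), a call that 8 of 9 alternatives lost. Its difference was 0.62 ± 0.20 in c-Kit-high cells (1.28 and 1.26 against 2.04 and 3.01 RPKM, adjusted p = 0.0526) and 0.56 ± 0.20 in Rag2(-/-) cells (0.879 and 0.822 against 1.28 and 2.28 RPKM, adjusted p = 0.0651), and in each setting the 2 groups did not overlap. Pbx2, the most abundant member outside the pre-pro-B cells, stayed between 28.4 and 55.4 RPKM there. The deletion moved it by log2 -0.09 (pro-B), -0.04 (c-Kit-high) and 0.22 (Rag2-null), with adjusted p of 0.236 or more. Pbx4 was not called in any of the 3 deletions.

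Whether the deletion acted differently between settings was tested as an interaction in the same fit. Against pro-B cells, the effect in c-Kit-high cells was called different for 3 of the 16 tested members, where 6.7% of all genes were. These were Hoxa6 (-1.42 ± 0.29, adjusted p = 0.0129), Hoxa7 (-1.12 ± 0.24, adjusted p = 0.0165) and Meis3 (-2.59 ± 0.30, adjusted p = 0.000632). Hoxa6 was at 0 in all 4 pro-B libraries and Hoxa7 did not pass 0.124 RPKM in them, so neither could fall there. Hoxa6, Hoxa7 and Meis3 entered the fit only through libraries of this comparison where they were high, Hoxa7 through the c-Kit-high libraries of both arms. The Hoxa7 interaction was lost under 6 of 13 alternatives and that of Hoxa6 under 3 of 11. Between Rag2(-/-) and pro-B cells 1 of the 16 differed (Meis3, -2.31 ± 0.30, adjusted p = 0.000384), where 13.1% of all genes did. For Hoxb7 the difference of effects was -0.04 ± 0.27 for c-Kit-high cells (adjusted p = 0.954) and 0.78 ± 0.27 for Rag2(-/-) cells (adjusted p = 0.0779). For Hoxb8 it was 0.63 ± 0.38 and 0.89 ± 0.38 (adjusted p = 0.373 and 0.159). Both comparisons share the pro-B libraries.

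Knock-down of Ikzf1 in pre-pro-B cells left the Hoxa genes near their control levels and lowered Meis1 and Pbx4. In the fit of the 16 pre-pro-B libraries 14 members were tested. Of these, 3 were called lower (Meis1, Meis3 and Pbx4), where 6.04% of all 10744 genes were, and 0 higher, where 13.4% were. Meis3 entered this fit only through the control libraries, where it was higher. The filter thus favoured its place in the count of lower calls. Hoxb4 had an unadjusted p under 0.05 in the higher direction. The median log2 difference was -0.05 over the tested members and 0.01 over all genes. The 16 libraries form 4 runs of consecutive library numbers, each with all 4 constructs. With the run as a block, 5575 rather than 2086 genes were called in all, and Hoxb4 was added to the members called, as higher (0.21, adjusted p = 0.0181 in place of 0.0803).

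Meis1 was at 32.8, 18.8, 28.2 and 22.4 RPKM with the empty vector and at 26.7, 13.9, 24.4 and 26.3 RPKM with Ren713. With Ik4056 it was at 12.9, 7.07, 9.91 and 8.78 RPKM, and with Ik2709 at 12.6, 8.11, 11.1 and 12.9 RPKM. All 8 hairpin libraries lay below all 8 control libraries, on average 2.32 times lower (-1.13 ± 0.16, adjusted p = 9.26e-05). Within each of the 4 runs both hairpin libraries were below both controls, and the ratio of means ran from 2.15 to 2.51. Pbx4 had 11.5, 9.63, 10.6 and 12.5 RPKM with the empty vector, 13.6, 9.64, 10.1 and 14.7 RPKM with Ren713, 7.54, 5.29, 5.70 and 9.68 RPKM with Ik4056 and 6.71, 7.25, 7.09 and 8.99 RPKM with Ik2709. The pooled groups overlapped through Ik4056 in run 4, at 9.68 RPKM, and the controls of run 2. Within every run both hairpin libraries were below both controls, by 1.46 to 1.76 times on average (-0.61 ± 0.12, adjusted p = 0.00191). Meis3 averaged 0.966 RPKM in the controls and 0.572 RPKM with the hairpins (-0.32 ± 0.11, adjusted p = 0.0421). It was lower with Ik2709, at 0.238 to 0.476 RPKM, than with Ik4056, at 0.613 to 1.05 RPKM, and its call was lost in 11 of 21 alternatives. Pbx2 averaged 58.6 RPKM in the controls and 59.8 RPKM with the hairpins (0.03 ± 0.06, adjusted p = 0.847).

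Myeloid markers moved with the hairpins as well. Their 12 genes summed to 42.3 to 157 RPKM in the control libraries, to 838 to 1410 RPKM with Ik4056 and to 505 to 1266 RPKM with Ik2709. Prtn3, a granule protease of early granulocytes and monocytes, carried much of this, with 625 to 1061 RPKM under Ik4056 against 3.96 to 26.9 RPKM under the empty vector, while S100a8 and S100a9, markers of mature neutrophils, were at 0 in all 16 libraries. The part of this shift in the Meis1 and Pbx4 values was not tested.

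**Figure D4:**
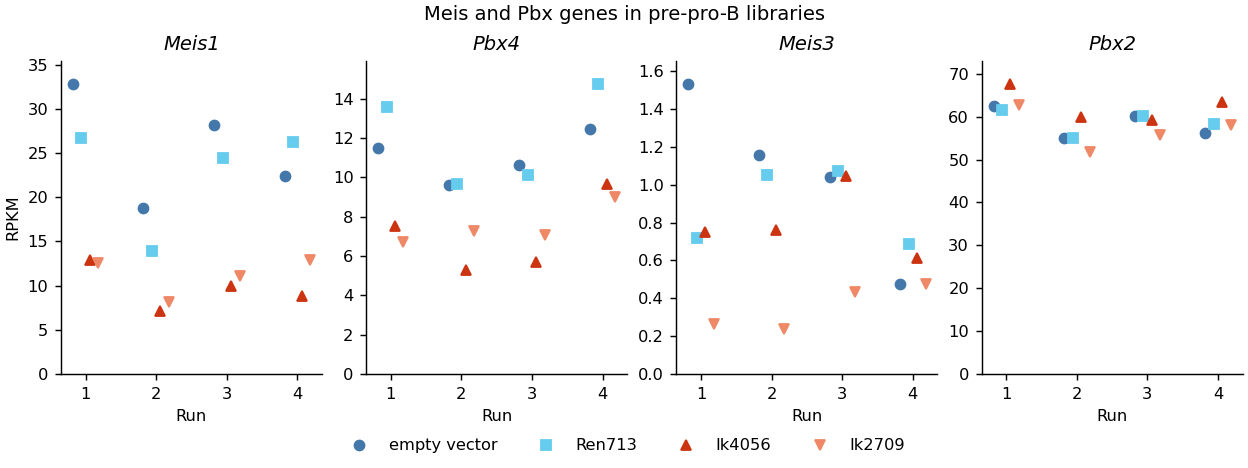
RPKM of Meis1, Pbx4, Meis3 and Pbx2 in the 16 pre-pro-B libraries, by run of library numbers on the x axis; each point is 1 library, with blue marks for the empty vector and Ren713 and red marks for the hairpins Ik4056 and Ik2709. In every run both hairpin libraries lie below both controls for Meis1 and Pbx4, while Pbx2 stays between 51.7 and 67.6 RPKM.

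The Hoxa genes differed between runs more than between constructs. Hoxa6 averaged 14.2 RPKM in run 4 and 2.42 RPKM in run 3, a 5.89-fold span. Hoxa5 averaged 25.03 and 5.55 RPKM in these runs, a 4.51-fold span, and Hoxa3 8.49 and 2.99 RPKM, a 2.84-fold span. These 3 genes at one end of the cluster were high in run 4 with every construct. Hoxa9 spanned 1.61-fold between runs, while Hoxa7 and Hoxa10 spanned 1.24-fold and 1.22-fold. Between hairpins and controls Hoxa7 averaged 43.7 and 43.8 RPKM, Hoxa9 51.4 and 49.9 RPKM and Hoxa10 16.6 and 16.7 RPKM. The log2 differences of the 8 tested Hoxa genes ran from -0.09 (Hoxa3) to 0.02 (Hoxa9), and none had an adjusted p under 0.889. For Hoxa7 the standard error was 0.08 and for Hoxa6 0.43 in this fit, which did not use the run as a block and so counted the spread between runs as error. Within runs the ratio of control to hairpin means ran from 0.977 to 1.06 for Hoxa7 and from 0.801 to 1.37 for Hoxa6. In the RefSeq annotation the span of Hoxa3 contains Hoxa4, Hoxa5 and Hoxa6, and an antisense transcript overlaps Hoxa5 and Hoxa6.

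Hoxb5, Hoxb6, Hoxb7 and Hoxb8 were at 0 RPKM in all 16 pre-pro-B libraries, including the 8 with an Ikzf1 hairpin. Of the cluster only Hoxb4 was detected there, at 1.42, 1.79 and 2.03 RPKM (lowest, median and highest) in the 8 control libraries.

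**Figure D5:**
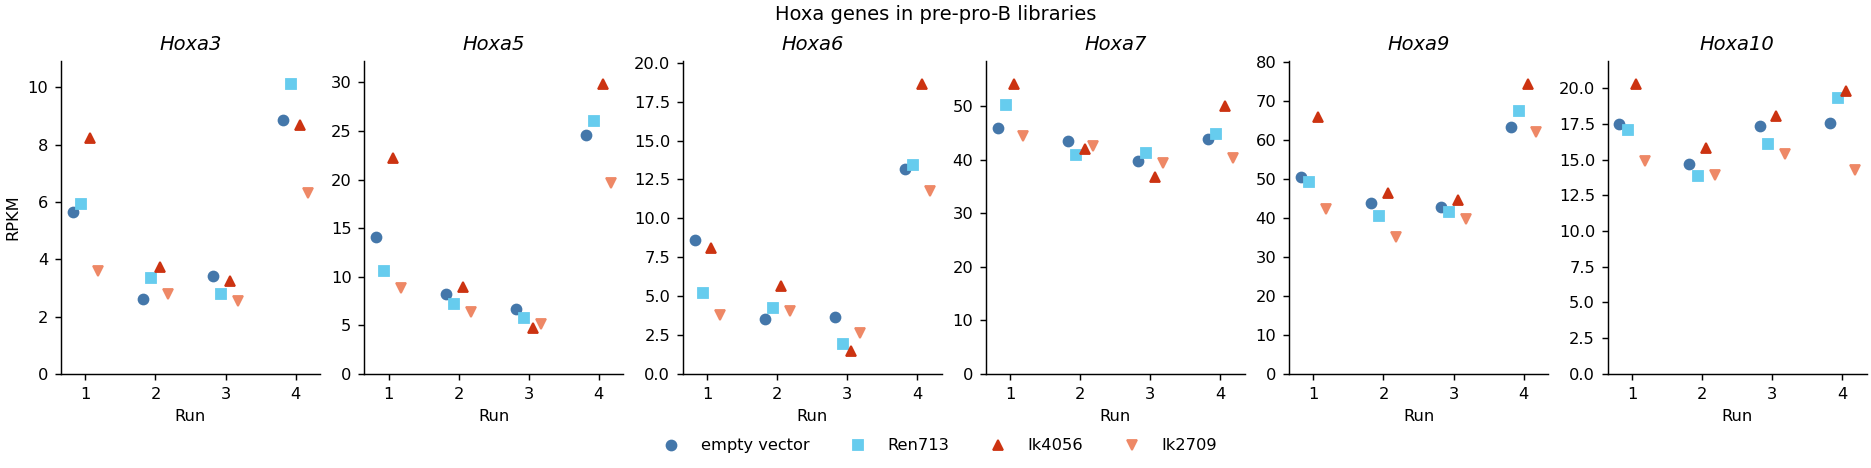
RPKM of 6 Hoxa genes in the 16 pre-pro-B libraries, by run of library numbers on the x axis; each point is 1 library, with blue marks for control and red marks for hairpin constructs, and each panel has its own y axis from 0. Hoxa3, Hoxa5 and Hoxa6 are highest in run 4, while Hoxa7 stays between 36.8 and 54.1 RPKM.

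The control libraries also allow the stages to be compared, with the limit that pre-pro-B cells differ from pro-B cells in Ebf1, in culture and in the vector at once. The pro-B controls also carry Ikzf1(fl/+) and Cd79a(Cre/+), which the pre-pro-B cells are not said to carry. These differences and the stage cannot be told apart. In a fit of all 30 libraries 20 members were tested and 14 were called between pre-pro-B controls and pro-B controls, where 55.5% of all 12272 genes were. Hoxa3, Hoxa5 and Hoxa10 entered this fit only through pre-pro-B libraries, where they were high, and Hoxb6 and Hoxb7 only through pro-B libraries. The filter therefore favoured the calls of these genes in this count. Hoxa9 stood at 40.5, 46.6 and 67.6 RPKM (lowest, median and highest of 8) in pre-pro-B controls and at 0.114 and 0.0430 RPKM in pro-B controls (5.54 ± 0.21, adjusted p = 3.5e-16). Hoxa7 stood at 39.7, 43.7 and 50.3 RPKM against 0 in both pro-B controls (5.48 ± 0.13, adjusted p = 2.03e-20). Hoxa10 stood at 13.9, 17.2 and 19.3 RPKM against 0.138 and 0.155 RPKM (3.94 ± 0.12, adjusted p = 2.42e-18). Hoxa3, Hoxa5 and Hoxa6 were called higher too, with log2 differences of 1.84, 3.15 and 2.74. Meis1, at 13.9, 25.4 and 32.8 RPKM, was 22.3 times its pro-B level (3.56 ± 0.26, adjusted p = 7.11e-11). Pbx2 and Pbx4 were 1.85 and 5.34 times as high.

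Hoxb4, Hoxb6, Hoxb7 and Pbx3 were among the genes called lower in pre-pro-B controls. The call of Pbx3 was lost under 4 of 15 alternatives, among them quantile normalization and the compared libraries alone. That of Hoxb4 was lost after quantile normalization (limma adjusted p = 0.117), and that of Hoxb6 without pro-B control replicate 2 (log2 -0.26). Hoxb7 was at 0 against 1.09 and 1.31 RPKM (-1.13 ± 0.09, adjusted p = 2.48e-10). Of the TALE partners, Meis1, Pbx2 and Pbx4 were thus higher in pre-pro-B than in pro-B controls, while the lower call of Pbx3 depended on the processing.

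Against control pro-B cells, c-Kit-high controls had 9 of 16 tested members called, all higher, where 50.8% of all genes were called (3318 higher and 2747 lower of 11937). Hoxa7 was at 4.00 and 5.76 RPKM against 0 in both pro-B controls (2.54 ± 0.17, adjusted p = 8.83e-07). Meis1 was at 7.57 and 5.92 RPKM, 6.21 times its pro-B level (1.89 ± 0.31, adjusted p = 0.000326). Hoxa6 (1.66 ± 0.21), Hoxa9 (1.49 ± 0.18), Hoxa4 (0.60 ± 0.16), Pbx4 (0.88 ± 0.26), Pbx2 (0.74 ± 0.12) and Hoxb8 (0.72 ± 0.27) were called as well. The call of Hoxb8 was lost under 5 of 8 alternatives, that of Hoxa4 under 3 of 7 and that of Pbx4 under 2 of 9. Hoxa4 and Hoxa6 entered the fit only through the c-Kit-high controls, so the filter favoured their higher calls in this count. Myeloid markers summed to 142 to 603 RPKM in c-Kit-high controls and 16.1 to 16.3 RPKM in pro-B controls, with 8 of 12 called higher (S100a9 by 6.30 ± 0.84), 7 of 7 tested stromal markers were called lower, and 10 of 12 B-progenitor markers were called higher. Their part in these differences was not tested. Hoxa10 did not pass 0.181 RPKM in either group, while in pre-pro-B cells it was the third most abundant Hox gene.

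Wild-type pre-B cells differed from control pro-B cells in 7 of 16 members, where 68.8% of all genes were called. The pro-B controls carry Ikzf1(fl/+) and Cd79a(Cre/+), so stage and genotype cannot be told apart in this comparison. Hoxb7 was at 0 and 0.124 RPKM against 1.09 and 1.31 RPKM (-1.05 ± 0.19, adjusted p = 0.000289). Hoxa7 was at 0.968 and 0.887 RPKM (0.95 ± 0.17, adjusted p = 0.000315). The myeloid marker sums given above for the pre-B libraries stand beside all of these values, and their part was not tested. Rag2(-/-) controls differed from pro-B controls in 1 member (Hoxa4, -0.51 ± 0.16, adjusted p = 0.0331), where 31.6% of all genes were called. No alternative that dropped a library kept that call.

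Other genes that keep Hox genes silent or active were read from lists. All 16 members of the Polycomb list were tested, and 5 were called higher and 2 lower in deleted pro-B cells, 2 higher and 1 lower in c-Kit-high cells, and 5 higher and 1 lower in Rag2(-/-) cells. Over all genes 13.5% were called higher and 9.89% lower in pro-B, 11.6% and 5.6% in c-Kit-high, and 15.5% and 6.84% in Rag2(-/-) cells, and the counts of the lists that follow are to be read against these shares. Pcgf2, a RING-finger subunit of Polycomb complex 1, was called higher in all 3 settings. Its mean rose from 6.62 to 14.02 RPKM in pro-B cells (0.96 ± 0.21, adjusted p = 0.0046), from 7.45 to 22.9 RPKM in c-Kit-high cells (1.51 ± 0.21) and from 3.43 to 12.5 RPKM in Rag2(-/-) cells (1.61 ± 0.21). Jarid2, an accessory subunit of Polycomb complex 2, rose from 14.2 to 48.5 RPKM in pro-B cells (1.71 ± 0.17, adjusted p = 1.39e-05). In the knock-down, where 13.4% of all genes were called higher and 6.04% lower, 3 Polycomb genes were called higher and 3 lower, among them Ezh1 (0.68 ± 0.14) and Pcgf2 (0.64 ± 0.14) higher.

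The MLL and trithorax list had 13 of 16 members tested. In the pro-B deletion 1 was called higher and 1 lower, in c-Kit-high cells 2 were called lower, in Rag2(-/-) cells 1 was called higher, and in the knock-down 0 were called by limma (1 with an unadjusted p under 0.05). Men1, which encodes menin, the MLL cofactor, fell from a mean of 121 to 68.4 RPKM in pro-B cells (-0.82 ± 0.10, adjusted p = 7.14e-05). The 3 Cdx genes, upstream activators of Hox genes in embryos, did not enter the fit. Of 14 progenitor genes 13 were tested, and 5, 4 and 4 were called higher in the pro-B, c-Kit-high and Rag2(-/-) deletions (over all genes 13.5%, 11.6% and 15.5%), Cd34 in all 3. Lmo2, a bridging factor of stem cell transcription complexes, rose from 6.14 to 59.4 RPKM in pro-B cells (3.08 ± 0.24, adjusted p = 2.99e-06). Erg fell there by 3.03 on the log2 scale (adjusted p = 6.35e-06). In all, 1, 1 and 0 genes of this list were called lower in the 3 deletions by limma, and the knock-down raised 3 and lowered 2 of the 11 tested.

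Among 17 homeobox genes outside the Hox, Meis and Pbx families, 13 were tested in the pro-B fit, and 5, 4 and 5 were called higher (over all genes 13.5%, 11.6% and 15.5%) and 2, 1 and 1 lower (9.89%, 5.6% and 6.84%). In the knock-down 2 of 10 were called higher and 0 lower. Lhx2, a LIM homeodomain factor that can expand blood progenitors, rose from 3.26 to 89.3 RPKM in pro-B cells. It also rose from 3.36 to 71.8 RPKM among c-Kit-high cells, and from 2.06 to 9.63 RPKM without Rag2. Pou6f1 was called higher in all 3 as well. Of the remaining TALE genes (Pknox1, Pknox2, Tgif1 and Tgif2), Tgif2 was called higher in the c-Kit-high (0.78 ± 0.17) and Rag2(-/-) (0.74 ± 0.17) deletions. Of the 3 tested, 0 were called in the pro-B deletion (1 had an unadjusted p under 0.05) and 0 in the knock-down (0 had one). Calls over all genes leaned to the higher side in these comparisons, and the lean depended on scaling. In Rag2(-/-) cells 1850 genes were called higher and 817 lower, against 1452 and 1419 after median-ratio scaling. The c-Kit-high deletion gave 1381 and 668, against 1269 and 1135 after quantile normalization, and in the knock-down 1437 and 649 against 1255 and 1109.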

How the data were processed

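The RNA-sequencing libraries were strand-specific and single-end from polyA RNA, per the labels' protocols. The authors deposited 1 RPKM value per gene model and library, normalized to length and mapped reads; the submitters' processing notes name TopHat 1.4.1, HTSeq 0.5.3, DESeq 1.8.3 and the mm9 build. Members were rows whose symbol matched the naming rule, and every detected member is named except where its values are not reported here; counts cover all members. The members and gene lists (Polycomb, MLL and trithorax, other TALE, progenitor, other homeobox, and cell type markers) were chosen with earlier results of these data known. Of each list, up to 3 called genes of largest change are named per comparison.

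Groups were compared with limma 3.58.1 (trend and robust, R 4.3.3) on log2(RPKM + 1), two-sided, over genes with at least 1 RPKM in at least 2 libraries of the fit. P-values were Benjamini-Hochberg adjusted over all genes tested, and called under 0.05. The log2(RPKM + 1) scale understates changes of low genes. The pro-B and pre-B fit had 14 libraries, the knock-down fit 16 and the pre-pro-B against pro-B fit 30, and groups in a fit share 1 estimate of the spread. Counts of reads were implied from the smallest step of the deposited RPKM values. The script was tested on simulated data. No 2 libraries were identical, and within-group correlations ran from 0.981 to 0.996. In the knock-down, libraries of the same run deviated together (lowest correlation of 24 pairs 0.52, median 0.775, against a median of -0.22 between runs), so the run number pairs them. Alternatives were a pseudocount of 0.1, no filter, quantile normalization, median-ratio scaling, the compared libraries alone, the run as a block, and leaving out each library.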

Additional observations from a re-analysis of the deposited data

Results flagged for a closer look

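In 60 sets of 4 replicates of a member detected in some group, Dixon's test at 95% set 6 single libraries apart, and chance alone gives about 1 in 20. With the empty vector, Hoxa10 was at 14.7 RPKM in run 2 against 17.5, 17.4 and 17.6 RPKM, and Hoxb3 was at 0.015 RPKM in run 2, which is 1 implied read, against 0 in the others, where any single read would be set apart. With Ren713, run 4 stood apart for Hoxa4, at 1.51 RPKM against 0.235, 0.388 and 0.171 RPKM, and for Pbx3, at 1.19 RPKM against 0.707, 0.696 and 0.63 RPKM. With Ik4056, Hoxb4 was at 2.65 RPKM in run 1 against 1.96, 1.96 and 2.01 RPKM. With Ik2709, Hoxa6 was at 11.7 RPKM in run 4 against 3.76, 4.04 and 2.6 RPKM.

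The effect of the Ikzf1 deletion was called different between settings for 3 members by limma's interaction test. Hoxa6 and Hoxa7 were at or near 0 in pro-B cells and could not fall there. All of Hoxa6, Hoxa7 and Meis3 entered the fit only through libraries of the c-Kit-high comparison where they were high. Compared with pro-B cells, the log2 effect in c-Kit-high cells differed by -1.42 for Hoxa6, by -1.12 for Hoxa7 and by -2.59 for Meis3. In Rag2(-/-) cells that of Meis3 differed by -2.31.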

How the results depend on the processing

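Of 55 member calls, 35 held under every alternative run for them, 20 were lost under at least 1, and 0 changed sign. Hoxb7 and Hoxb8 held in all 3 deletions, as did Hoxb6 in c-Kit-high and Rag2(-/-) cells, and Meis1 and Pbx4 in the knock-down. Of these, Hoxb8 would not have entered the fit without deleted libraries. Meis3 in pro-B cells and Hoxa6 in c-Kit-high cells, which entered the fit only through the group where they were high, held where they could be fitted. With the compared libraries alone, calls went from 7 to 4 in the pro-B deletion, from 1 to 0 between Rag2(-/-) and pro-B controls, and from 3 to 1 in the c-Kit-high interaction. In the pro-B deletion Hoxa4, Hoxb3 and Hoxb5 did not reach 1 RPKM in 2 of the compared libraries, so they were not tested there. The same held for Hoxa4 between Rag2(-/-) and pro-B controls. A pseudocount of 0.1 moved the Rag2(-/-) deletion from 3 to 5, its control comparison from 1 to 2 and its interaction from 1 to 2. Without the filter the latter 2 went to 5 and 4, and quantile normalization left 0 in the control comparison. Leaving out 1 library gave 3 to 6 calls in the pro-B deletion, 5 to 7 in c-Kit-high cells, 3 to 4 in Rag2(-/-) cells, 2 to 3 in the knock-down, 7 to 8 between c-Kit-high and pro-B controls, 0 to 1 for Rag2(-/-), 4 to 7 for pre-B, 13 to 15 for pre-pro-B, and 1 to 3 in each interaction. The pro-B deletion had 3 calls without control replicate 1 and 4 without either deleted replicate. Where a left-out library leaves a group with 1, that library is assumed to vary like the other groups. The cause of the remaining moves was not tested.

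With the run as a replicate block, 4 members rather than 3 were called in the knock-down (Hoxb4 added) and 5575 rather than 2086 genes overall. The pairing changed no other member call. The knock-down fit already held only the compared libraries, so that alternative gave no separate value. Between Rag2(-/-) and pro-B controls 1301 genes were called higher and 2476 lower, against 1361 and 1651 with quantile-normalized values and 2058 and 1763 when scaled by median ratios. Depth limits the low members most: Hoxb8 in control pro-B cells rests on 0 and 4 implied reads.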
